A study of Homo sapiens with 14 samples.

Results

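The genes described here are 37 DNA repair and cell-cycle checkpoint genes in PANC-1, a long-established cell line of a human pancreatic carcinoma. They comprise factors of homologous recombination, helicases and a nuclease, Fanconi anaemia factors, checkpoint kinases with their mediators, and proteins that sense DNA ends or mismatches. A gene was represented by the probe set assigned to that gene alone and, where there were several, by the one with the highest mean over all 14 arrays. Of the 37 genes, 33 were measured, among 18129 genes in all, and 29 were bright enough to be tested, among 10877 genes tested. BRCA2, FANCA, FANCD2 and RBBP8 were not analysed here, and BRIP1, FANCB, FANCM and ATRIP lay below the brightness limit, so their values are given without a test. Values are log2 intensities of Affymetrix expression arrays, on which a difference of 1 is a doubling.

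The cells were grown in 10% serum, starved in 1% serum during 24 h, and exposed to the agents during 48 h. The groups were TGFb1 at 5 ng/ml with acriflavine at 2.5 µM (3 arrays), TGFb1 at 5 ng/ml with sodium valproate at 2 mM (3 arrays), TGFb1 alone at 5 ng/ml (4 arrays) and untreated control cells (4 arrays). TGFb1 is a cytokine that drives carcinoma cells towards a mesenchymal state, the process against which acriflavine was tried in this study; acriflavine is a mixture of acridine dyes, and valproate inhibits histone deacetylases. The series calls the replicates biological, a single cell line stands for the tumour type, and neither acriflavine nor valproate was analysed here without TGFb1. The 5 epithelial markers tested (KRT8, KRT18, KRT19, EPCAM and CDH1) lay between 6.28 and 14.3 across the arrays, while the endothelial markers lay between 5.08 and 7.06 with 0 of 4 bright enough to test. All 5 epithelial markers were lower with TGFb1 than in control cells, against 9.97% of all genes tested. Over TGFb1, 4 of the 5 were higher and 0 lower with acriflavine, and 1 was higher and 0 lower with valproate. The shares of all genes that were higher were 24.5% and 15.1%. Of the other lists, 2 of 5 fibroblast markers (COL1A1 and COL3A1), 1 of 5 leukocyte markers (LAPTM5) and 2 of 4 hepatocyte markers were bright enough, and the lists spanned 3.35 to 12.8, 3.63 to 7.59 and 4.62 to 7.73. COL1A1 differed between the groups, at 8.24 to 8.35 with acriflavine, 12.7 to 12.8 with valproate, 11.2 to 12.5 with TGFb1 and 7.85 to 8.73 in control cells, and so did LAPTM5, at 6.29 to 6.45, 7.36 to 7.41, 7.27 to 7.59 and 6.47 to 6.66 in the same groups. COL3A1 changed by 0.73 with TGFb1 over control, and by -2.22 with acriflavine and -0.94 with valproate over TGFb1. LUM, a fibroblast marker too dim to test, read 5.81 to 6.36 with valproate, against 3.35 to 3.74 in the other groups. The dim leukocyte marker CD14 reached 5.47 with valproate, 5.08 with TGFb1, 5.01 with acriflavine and 4.79 in control cells. The fibroblast marker DCN lay between 3.88 and 4.44 and the leukocyte marker PTPRC between 3.63 and 4.05 in all arrays. The other measured markers of these lists, PDGFRA and CD3E, overlapped between all groups. The part of these markers in the results was not tested.

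Double-strand breaks and stalled replication forks are repaired by homologous recombination, in which DNA ends are cut back by nucleases and factors such as BRCA1 and PALB2 prepare the exposed strand to invade an intact copy. The Fanconi anaemia pathway removes crosslinks between strands with the help of the same machinery. The kinases ATM and ATR report damage to CHEK2 and CHEK1, which hold the cell cycle, and many of these genes are transcribed mainly in cells that are replicating their DNA.

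Array medians lay between 7.16 and 7.21, but 3 arrays lay farther from their group means than the rest. Over all genes, the standard deviation (SD) of those distances was 0.375 in TGFb1 replicate 4, 0.256 in TGFb1 replicate 2 and 0.250 in control replicate 4, while it was 0.0665 to 0.160 elsewhere. TGFb1 replicate 4 is therefore given separately in what follows. Across the 29 tested genes it lay above the mean of TGFb1 replicates 1 to 3 in 26, with a median difference of 0.53 and a range of -0.96 to 1.54. Control replicate 4 lay above the mean of control replicates 1 to 3 in 24 of 29 genes, with a median difference of 0.18.

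**Figure D1:**
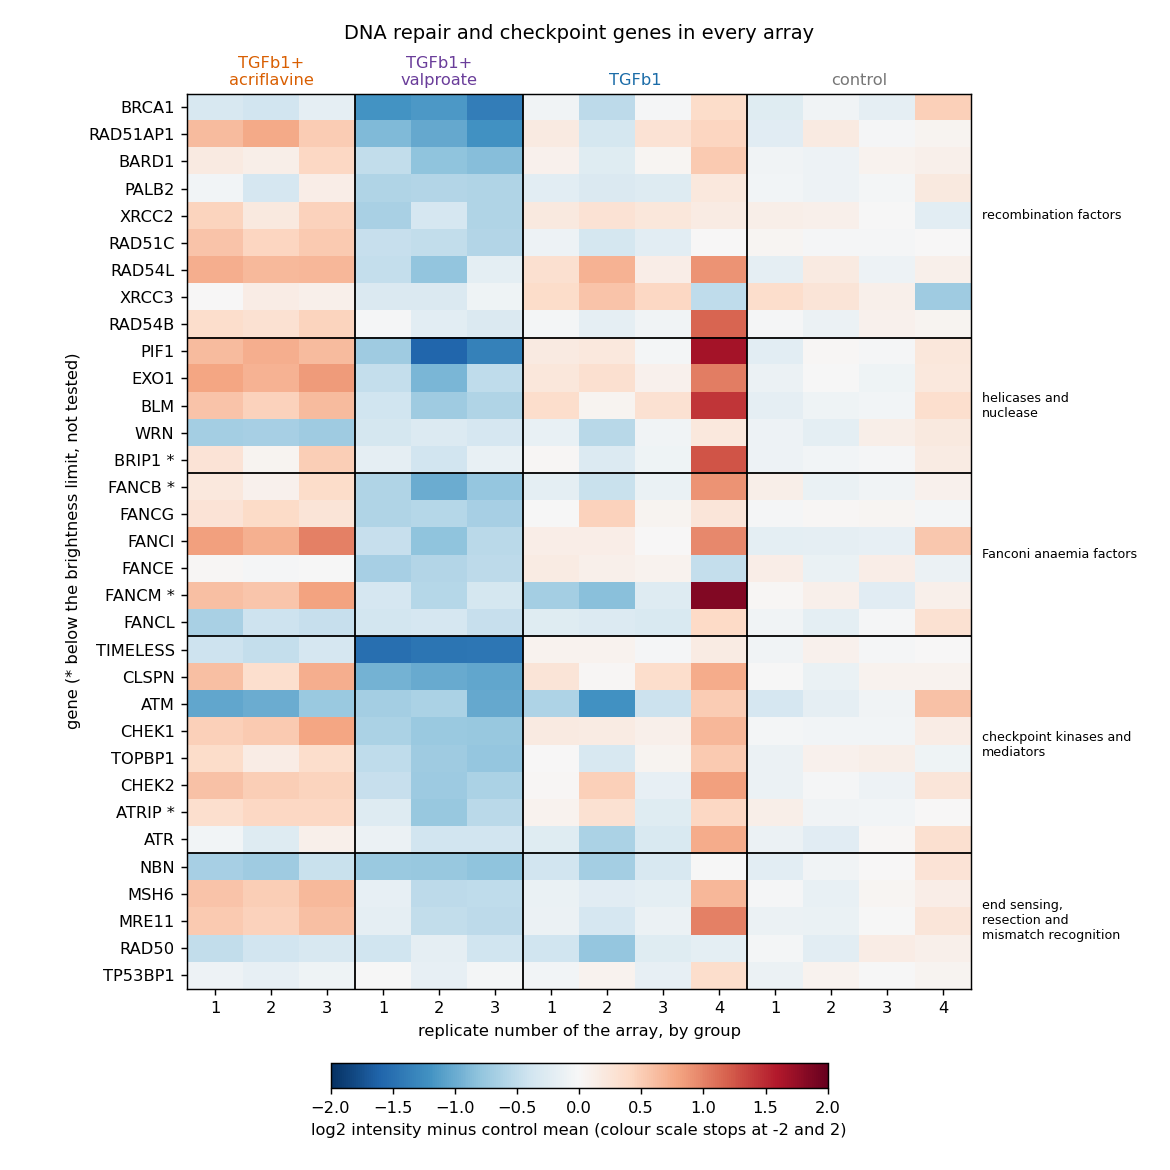
Heat map of the 33 measured genes (rows, by role) in the 14 arrays (columns, by group and replicate number), coloured by log2 intensity minus the mean of the 4 control arrays. The 3 valproate arrays are blue in most rows, the 3 acriflavine arrays are mixed, and TGFb1 replicate 4 is redder than TGFb1 replicates 1 to 3 in most rows.

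Valproate added to TGFb1 was set against TGFb1 alone to ask what the histone deacetylase inhibitor does on the TGFb1 background. Of the 29 tested genes, 19 fell and 0 rose, against 16.2% of all tested genes that fell and 15.1% that rose in the same fit (limma over all 14 arrays, Benjamini-Hochberg adjusted p under 0.05). Their median change was -0.73 on the log2 scale, against -0.01 for all genes tested. The falls were spread over the roles, with 7 of 9 recombination factors, 3 of 4 helicases and nuclease, 3 of 4 Fanconi anaemia factors, 5 of 7 checkpoint genes and 1 of 5 genes of end sensing, resection and mismatch recognition. PIF1, TIMELESS and CLSPN fell most. In 20 of the 29 genes the valproate and TGFb1 arrays did not overlap, against 34.6% of all genes tested. Without TGFb1 replicate 4 the count was again 19, with XRCC3 among them and NBN not, against 20.1% of all genes, and without both replicates 4 it was 20, against 23.7%. In cultured cells a lower value cannot tell fewer cells expressing a gene and less RNA per cell apart.

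Acriflavine added to TGFb1 was set against TGFb1 alone in the same way, with the same TGFb1 arrays. RAD51C, MSH6 and RAD51AP1 rose and WRN and TIMELESS fell, which is 3 and 2 of 29 genes against 24.5% of all tested genes that rose and 19.1% that fell. The median change of the 29 genes was 0.14, against 0.03 for all genes tested. This count rested on TGFb1 replicate 4: without it 12 genes rose and 2 fell, against 29.4% and 22.2% of all genes. The 12 were RAD51AP1, RAD51C, RAD54B, PIF1, EXO1, FANCI, CHEK1, CHEK2, TOPBP1, CLSPN, MRE11 and MSH6, and the median change was then 0.30. With all arrays, other bright probe sets of CHEK1, CLSPN, FANCI and TOPBP1 gave the opposite sign in this comparison. The counts also depended on other single arrays, since 1 gene rose without acriflavine replicate 1 or without acriflavine replicate 2, and 5 fell without TGFb1 replicate 2.

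TGFb1 alone was set against control to show how cells given the cytokine without an inhibitor differed from untreated cells. RAD54L rose and RAD50 fell, which is 1 gene each against 8.39% of all tested genes that rose and 9.97% that fell, and the median change was 0.10, against 0.00 for all genes tested. Neither call held when single arrays were left out: 0 genes rose without TGFb1 replicate 4, and without control replicate 1, 3 or 4, while 0 genes fell without TGFb1 replicate 1 or 2, and without control replicate 1, 3 or 4. Without TGFb1 replicate 4, 5 genes fell (RAD51C, ATM, ATR, NBN and RAD50), against 16.8% of all genes, and the 0 genes that rose stood against 12.1%. The main fit did not pair the samples. By a correlation rule applied to these data and given below, control and TGFb1 samples could be paired by replicate number, which was tried as an alternative. With replicates 1 to 3 alone the correlation for replicate 1 was -0.258, and the rule was not met. With the replicate number as a block 6 genes rose (RAD54L, BLM, EXO1, FANCI, CHEK1 and CLSPN) and 2 fell (NBN and RAD50), against 13.2% and 15.8% of all genes.

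The acriflavine and valproate groups, which share TGFb1 treatment and no arrays, were also compared with each other. Of the 29 genes, 20 were higher with acriflavine and 0 were lower, against 28.3% and 23.3% of all genes tested, and the median difference was 0.95, against 0.04 for all genes. The arrays of the 2 groups did not overlap in 24 of the 29 genes, against 72.3% of all genes tested. The largest differences were those of PIF1 at 1.88, RAD51AP1 at 1.67 and CLSPN at 1.55. The 9 that did not pass were RAD54B, XRCC3, WRN, FANCL, ATM, ATR, NBN, RAD50 and TP53BP1, with WRN at -0.36 ± 0.15 (adjusted p = 0.064).

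**Figure D2:**
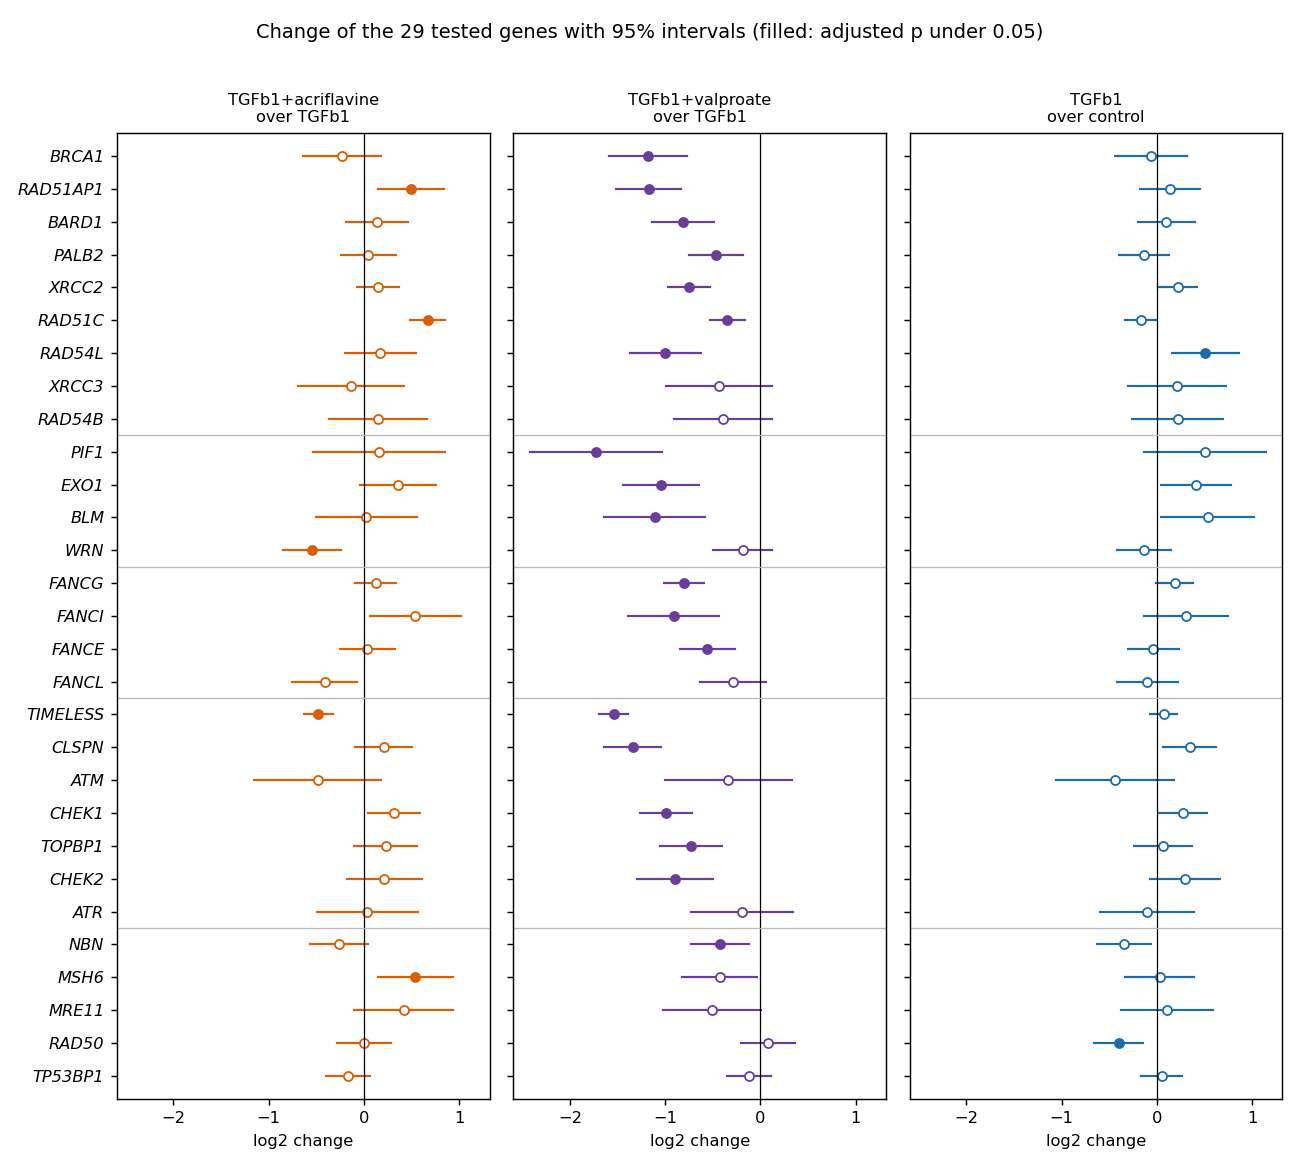
Log2 change of the 29 tested genes (rows, by role, with grey lines between roles) for acriflavine over TGFb1, valproate over TGFb1 and TGFb1 over control, with 95% intervals of the limma fit and filled points where the adjusted p was under 0.05. The valproate panel has 19 filled points, all below 0, the acriflavine panel has 5 on both sides of 0, and the TGFb1 panel has 2.

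The stretch of the genome around the start of a gene is its promoter, and those of the 3 genes that fell most with valproate are shown so that the letters often named in promoters of cell-cycle genes can be seen. They are the 250 bases before and 50 after the RefSeq start in GRCh38.p14, written 5′ to 3′ on the gene's strand, with every match to a searched motif in capitals. PIF1 lies at chr15:64825598-64825897, TIMELESS at chr12:56449377-56449676 and CLSPN at chr1:35769929-35770228, all on the minus strand.
PIF1: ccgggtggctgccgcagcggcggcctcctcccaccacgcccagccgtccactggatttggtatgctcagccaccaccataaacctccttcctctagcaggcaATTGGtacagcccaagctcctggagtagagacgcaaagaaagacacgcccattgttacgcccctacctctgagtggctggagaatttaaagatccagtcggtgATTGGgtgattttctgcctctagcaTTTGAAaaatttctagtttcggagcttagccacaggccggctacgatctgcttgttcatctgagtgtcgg
TIMELESS: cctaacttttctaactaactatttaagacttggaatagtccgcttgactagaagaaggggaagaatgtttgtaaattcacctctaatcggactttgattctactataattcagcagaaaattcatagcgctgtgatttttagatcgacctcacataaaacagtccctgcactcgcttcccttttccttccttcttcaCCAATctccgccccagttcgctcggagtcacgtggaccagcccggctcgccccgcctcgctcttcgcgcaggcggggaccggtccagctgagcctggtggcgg
CLSPN: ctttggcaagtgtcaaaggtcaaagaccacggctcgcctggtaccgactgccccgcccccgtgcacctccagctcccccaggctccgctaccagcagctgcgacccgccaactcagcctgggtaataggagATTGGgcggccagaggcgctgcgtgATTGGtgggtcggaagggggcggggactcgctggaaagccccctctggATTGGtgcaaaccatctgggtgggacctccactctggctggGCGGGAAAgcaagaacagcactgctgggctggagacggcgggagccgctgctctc

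The motifs searched on both strands were 4 spellings of the E2F site (TTTGGCGC, TTTCCCGC, TTTGCCGC and TTTCGCGC), the cell-cycle homology region CHR (TTTGAA) and the CCAAT box, none of which overlap in the 3 sequences shown. In PIF1 the capitals are CHR at -20 to -15 from the start and a CCAAT box read on the other strand at -148 to -144 and at -45 to -41. The TIMELESS window holds a CCAAT box at -53 to -49 and no other searched letters. CLSPN has an E2F spelling on the other strand at -5 to 3 and CCAAT boxes on the other strand that begin at -119, -94 and -46. Of the 37 genes, 33 had a promoter in the table. An E2F spelling was found in 7 of 33 (21.2%), against 3.31% of 35116 promoters of the same length. The CCAAT box was found in 18 of 33 (54.5%), against 34.6% of all promoters, and CHR in 3 of 33 (9.09%), against 15.2%. Among the genes with a promoter in the table, 17 fell with valproate and 8 were tested and did not pass. An E2F spelling was present in 4 of these 17 (23.5%) and in 1 of these 8 (12.5%). The CCAAT box was present in 9 of the 17 (52.9%) and 5 of the 8 (62.5%). CHR was present in 1 of the 17 (5.88%) and 1 of the 8 (12.5%). A match is a description of these letters, and binding was not measured.

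Among the recombination factors, RAD51AP1, which stimulates the exchange of DNA strands, moved apart in the acriflavine and valproate arrays. It read 9.44, 9.56 and 9.31 with acriflavine, 7.93, 7.79 and 7.60 with valproate, 8.99, 8.46 and 9.09 in TGFb1 replicates 1 to 3 with 9.24 in TGFb1 replicate 4, and 8.59, 8.98, 8.79 and 8.87 in control cells. The 3 acriflavine arrays lay above every other array, and the 3 valproate arrays lay below every other array. Acriflavine changed it by 0.49 ± 0.16 (adjusted p = 0.0215) and valproate by -1.17 ± 0.16 (adjusted p = 8.98e-05), both over TGFb1 (log2 change ± SE of the limma fit). The acriflavine call was lost in some alternative fits, with an adjusted p of up to 0.0878.

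RAD51C, a recombination factor that works in complexes with other proteins of its family, read 9.76, 9.60 and 9.70 with acriflavine, 8.72, 8.69 and 8.59 with valproate, 9.08, 8.83 and 8.97 in TGFb1 replicates 1 to 3 with 9.19 in TGFb1 replicate 4, and 9.21, 9.16, 9.16 and 9.19 in control cells. The acriflavine arrays were the highest and the valproate arrays the lowest, with no overlap, and the TGFb1 arrays reached into the narrow range of the control arrays only with replicate 4. The change over TGFb1 was 0.67 ± 0.09 (adjusted p = 3.04e-05) with acriflavine, the largest rise among the 29 genes, and -0.35 ± 0.09 (adjusted p = 0.00673) with valproate, a call lost with the 2 groups alone (adjusted p = 0.0558). TGFb1 over control was -0.16 ± 0.08 (adjusted p = 0.174) and did not pass.

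BRCA1, the tumour suppressor that promotes the cutting back of DNA ends, read 8.87, 8.82 and 9.02 with acriflavine, 8.004, 8.04 and 7.81 with valproate, 9.12, 8.68 and 9.17 in TGFb1 replicates 1 to 3 with 9.56 in TGFb1 replicate 4, and 8.95, 9.13, 9.02 and 9.68 in control cells. The valproate arrays lay below all others, while both replicates 4 were the highest arrays. With valproate it fell to 0.442 times its TGFb1 level, -1.18 ± 0.19 (adjusted p = 0.000374), and with acriflavine it changed by -0.23 ± 0.19 (adjusted p = 0.355) and did not pass. BARD1, its partner in a ubiquitin ligase, changed by -0.81 ± 0.15 (adjusted p = 0.00107) with valproate, and PALB2, which joins BRCA1 to BRCA2, by -0.46 ± 0.13 (adjusted p = 0.0165), a call with an adjusted p of up to 0.0514 under the alternatives.

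RAD54L, a motor protein that moves along DNA during strand exchange, read 8.16, 8.08 and 8.09 with acriflavine, 6.96, 6.64 and 7.23 with valproate, 7.75, 8.12 and 7.55 in TGFb1 replicates 1 to 3 with 8.33 in TGFb1 replicate 4, and 7.25, 7.60, 7.32 and 7.53 in control cells. The valproate arrays were the lowest, and the TGFb1 and control arrays overlapped, since TGFb1 replicate 3 lay below control replicate 2. Its change was 0.51 ± 0.16 (adjusted p = 0.0427) for TGFb1 over control, a call whose adjusted p reached 0.21 under an alternative, and -0.998 ± 0.17 (adjusted p = 0.000675) for valproate over TGFb1. XRCC2, another recombination factor, fell with valproate as well, with a change of -0.75.

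XRCC3, a partner of RAD51C, and RAD54B, a relative of RAD54L, did not pass in any of these comparisons with all arrays, though each passed in some alternatives. XRCC3 changed by -0.44 ± 0.26 (adjusted p = 0.228) with valproate over TGFb1, and its 2 replicates 4 were the lowest arrays of all, at 7.57 with TGFb1 and 7.36 in control cells. RAD54B read 9.20 in TGFb1 replicate 4, against a range of 7.857 to 8.002 in TGFb1 replicates 1 to 3. Without TGFb1 replicate 4 acriflavine over TGFb1 was 0.46 ± 0.09 (adjusted p = 0.000549) for RAD54B, which then passed.

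**Figure D3:**
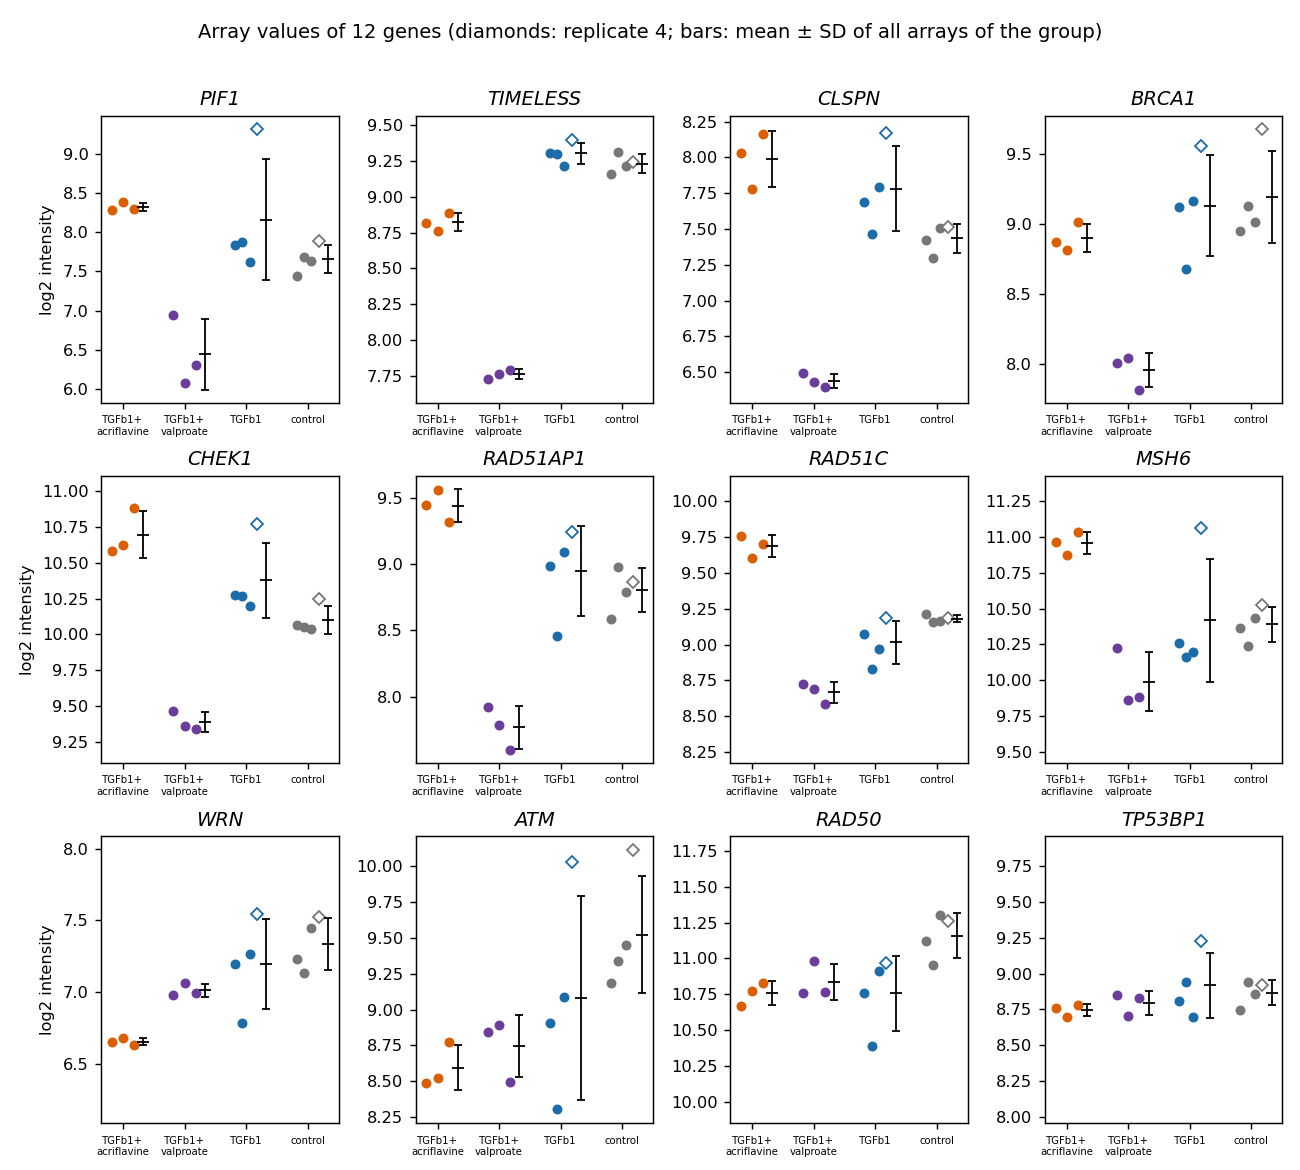
Log2 intensity of 12 of the genes in every array (y axis, scale differs between panels) for the 4 groups, with diamonds for replicate 4 and black bars for the mean ± SD of all arrays of a group. The valproate points lie below all others for PIF1, TIMELESS, CLSPN, BRCA1, CHEK1, RAD51AP1 and RAD51C, and groups overlap for TP53BP1 and RAD50.

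Among the helicases and the nuclease, PIF1, a helicase that unwinds folded DNA and works at telomeres, fell most with valproate. It read 8.29, 8.38 and 8.30 with acriflavine, 6.94, 6.07 and 6.30 with valproate, 7.84, 7.87 and 7.62 in TGFb1 replicates 1 to 3 with 9.32 in TGFb1 replicate 4, and 7.45, 7.68, 7.63 and 7.88 in control cells. The valproate arrays lay below all others, and the acriflavine arrays lay above all control arrays and above TGFb1 replicates 1 to 3, but below TGFb1 replicate 4. Valproate brought it to 0.303 times its TGFb1 level, -1.72 ± 0.32 (adjusted p = 0.00108). Over the mean of TGFb1 replicates 1 to 3 alone the valproate change was -1.34, and over replicate 4 alone it was -2.88. Acriflavine over TGFb1 was 0.16 ± 0.32 (adjusted p = 0.724) with all arrays and 0.54 ± 0.17 (adjusted p = 0.0178) without TGFb1 replicate 4.

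EXO1, the nuclease that cuts back DNA ends and also serves mismatch repair, changed by -1.04 ± 0.19 (adjusted p = 0.000758) with valproate over TGFb1, and BLM, a RecQ helicase that takes apart recombination intermediates, by -1.11 ± 0.25 (adjusted p = 0.00363). WRN, a second RecQ helicase and the gene of Werner syndrome, went another way. It read 6.65, 6.68 and 6.63 with acriflavine, 6.98, 7.07 and 6.99 with valproate, 7.19, 6.79 and 7.27 in TGFb1 replicates 1 to 3 with 7.54 in TGFb1 replicate 4, and 7.23, 7.13, 7.45 and 7.52 in control cells. The acriflavine arrays were the lowest and overlapped with no other group, and the valproate arrays lay within the range of the TGFb1 arrays. Its change over TGFb1 was -0.54 ± 0.14 (adjusted p = 0.00705) with acriflavine and -0.18 ± 0.14 (adjusted p = 0.368) with valproate, which did not pass.

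BRIP1, a helicase that binds BRCA1, was among the dimmest of the genes and was not tested. It read 5.49, 5.28 and 5.72 with acriflavine, 5.04, 4.85 and 5.07 with valproate, 5.24, 4.95 and 5.14 in TGFb1 replicates 1 to 3 with 6.48 in TGFb1 replicate 4, and 5.13, 5.17, 5.20 and 5.39 in control cells. TGFb1 replicate 4 was the highest array, and the other groups lay within narrow ranges below it.

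Among the Fanconi anaemia factors, the core complex members FANCG and FANCE and the clamp subunit FANCI fell with valproate over TGFb1. The changes were -0.80 ± 0.10 (adjusted p = 4.07e-05) for FANCG, -0.91 ± 0.22 (adjusted p = 0.00676) for FANCI and -0.56 ± 0.13 (adjusted p = 0.0062) for FANCE. FANCL, the ubiquitin ligase of the complex, changed by -0.29 ± 0.16 (adjusted p = 0.197) with valproate and by -0.41 ± 0.16 (adjusted p = 0.0516) with acriflavine, and neither passed; the acriflavine change passed in 9 of 20 alternatives, with adjusted p-values of 0.0107 to 0.177. None of the 4 passed with acriflavine over TGFb1, where FANCI changed by 0.54 ± 0.22 (adjusted p = 0.0657). FANCE was low in TGFb1 replicate 4 at 7.56, against 8.11 to 8.20 in TGFb1 replicates 1 to 3, while FANCI and FANCL were high in it.

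FANCM, a motor protein that anchors the core complex to DNA, was below the brightness limit and varied most. It read 5.87, 5.82 and 6.07 with acriflavine, 4.93, 4.69 and 4.91 with valproate, 4.58, 4.42 and 5.01 in TGFb1 replicates 1 to 3 with 7.12 in TGFb1 replicate 4, and 5.29, 5.37, 5.04 and 5.36 in control cells. TGFb1 replicate 4 was the highest array and TGFb1 replicates 1 and 2 the lowest, so the TGFb1 group spanned the values of every other group. FANCB, also of the core complex, read 7.16, 7.04 and 7.32 with acriflavine, 6.34, 5.96 and 6.18 with valproate, 6.76, 6.50 and 6.82 in TGFb1 replicates 1 to 3 with 7.85 in TGFb1 replicate 4, and 7.06, 6.82, 6.88 and 7.03 in control cells, where the valproate arrays lay below all others. In a fit with no brightness limit, valproate over TGFb1 was -0.82 for FANCB (adjusted p = 0.0189) and -0.66 for ATRIP (adjusted p = 0.00342).

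Among the checkpoint genes, TIMELESS, which protects the replication fork together with TIPIN, gave the smallest adjusted p. It read 8.82, 8.76 and 8.89 with acriflavine, 7.73, 7.77 and 7.79 with valproate, 9.30, 9.30 and 9.21 in TGFb1 replicates 1 to 3 with 9.40 in TGFb1 replicate 4, and 9.16, 9.31, 9.22 and 9.24 in control cells. The valproate arrays were lowest, the acriflavine arrays lay between, and the TGFb1 and control arrays lay together at the top, with replicate 4 close to the others in both. Over TGFb1 it changed by -1.54 ± 0.07 (adjusted p = 3.15e-08) with valproate, to 0.344 times the TGFb1 level, and by -0.48 ± 0.07 (adjusted p = 0.000107) with acriflavine. It was the only gene of the 29 that passed as lower with both inhibitors over TGFb1 in the fit of all arrays, in comparisons that share the TGFb1 arrays.

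CLSPN (claspin), the adaptor that lets ATR activate CHEK1, read 8.03, 7.78 and 8.16 with acriflavine, 6.49, 6.43 and 6.40 with valproate, 7.69, 7.46 and 7.79 in TGFb1 replicates 1 to 3 with 8.17 in TGFb1 replicate 4, and 7.42, 7.30, 7.51 and 7.51 in control cells. The valproate arrays lay below all others by more than the range of any single group, and the acriflavine arrays lay above all control arrays and among the TGFb1 arrays. Its change over TGFb1 was -1.34 ± 0.14 (adjusted p = 1.06e-05) with valproate and 0.21 ± 0.14 (adjusted p = 0.245) with acriflavine, which did not pass.

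CHEK1, the effector kinase downstream of ATR, read 10.58, 10.62 and 10.89 with acriflavine, 9.47, 9.36 and 9.34 with valproate, 10.27, 10.27 and 10.20 in TGFb1 replicates 1 to 3 with 10.77 in TGFb1 replicate 4, and 10.06, 10.05, 10.04 and 10.24 in control cells. The valproate arrays were the lowest, and the acriflavine arrays were the highest apart from TGFb1 replicate 4, which lay among them. Valproate over TGFb1 was -0.99 ± 0.13 (adjusted p = 6.11e-05), and acriflavine over TGFb1 was 0.32 ± 0.13 (adjusted p = 0.057) with all arrays and 0.45 ± 0.09 (adjusted p = 0.000869) without TGFb1 replicate 4. With all arrays, the bright probe sets of CHEK1 gave both signs for acriflavine over TGFb1. CHEK2, the effector kinase downstream of ATM, changed by -0.90 ± 0.18 (adjusted p = 0.00213) with valproate.

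TOPBP1, the activator of ATR, had the highest mean of the 33 probe sets. It read 11.37, 11.15 and 11.35 with acriflavine, 10.50, 10.30 and 10.22 with valproate, 11.01, 10.68 and 11.05 in TGFb1 replicates 1 to 3 with 11.52 in TGFb1 replicate 4, and 10.88, 11.09, 11.12 and 10.92 in control cells. Again the valproate arrays were the lowest and TGFb1 replicate 4 the highest, and valproate over TGFb1 was -0.73 ± 0.15 (adjusted p = 0.00251).

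The apical kinases did not follow their mediators past the threshold. ATM read 8.49, 8.53 and 8.77 with acriflavine, 8.84, 8.89 and 8.50 with valproate, 8.91, 8.31 and 9.09 in TGFb1 replicates 1 to 3 with 10.03 in TGFb1 replicate 4, and 9.18, 9.34, 9.45 and 10.11 in control cells. Both replicates 4 lay above every other array, TGFb1 replicate 2 was the lowest of all, and the inhibitor arrays fell within the wide TGFb1 range but below all control arrays. Acriflavine over TGFb1 was -0.49 ± 0.31 (adjusted p = 0.227) and valproate over TGFb1 was -0.34 ± 0.31 (adjusted p = 0.457), and neither passed. ATR read 8.75, 8.53 and 8.90 with acriflavine, 8.69, 8.41 and 8.41 with valproate, 8.56, 8.16 and 8.50 in TGFb1 replicates 1 to 3 with 9.55 in TGFb1 replicate 4, and 8.69, 8.57, 8.82 and 9.12 in control cells. Its groups overlapped, and valproate over TGFb1 was -0.19 ± 0.25 (adjusted p = 0.623), with a 95% interval of -0.72 to 0.34. ATRIP, the partner of ATR, was below the brightness limit and read between 6.06 and 6.55 with valproate, against 6.57 to 7.23 with TGFb1.

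Of the genes of end sensing, resection and mismatch recognition, NBN passed with valproate and MSH6 with acriflavine. RAD50, with MRE11 and NBN a member of the complex that binds broken ends, read 10.67, 10.77 and 10.83 with acriflavine, 10.76, 10.98 and 10.77 with valproate, 10.76, 10.39 and 10.91 in TGFb1 replicates 1 to 3 with 10.97 in TGFb1 replicate 4, and 11.12, 10.95, 11.30 and 11.26 in control cells. The inhibitor and TGFb1 arrays overlapped throughout, and most of them lay below the control arrays. TGFb1 over control was -0.40 ± 0.12 (adjusted p = 0.0343), a call whose adjusted p reached 0.123 under an alternative. Valproate over TGFb1 was 0.08 ± 0.13 (adjusted p = 0.707), with a 95% interval of -0.20 to 0.36.

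NBN changed by -0.42 ± 0.14 (adjusted p = 0.0359) with valproate over TGFb1, a call lost in 9 of 20 alternatives, with an adjusted p of up to 0.103. MRE11, the nuclease of the complex, changed by -0.51 ± 0.24 (adjusted p = 0.131) and did not pass. TP53BP1, which limits the cutting back of ends, changed by -0.12 ± 0.11 (adjusted p = 0.433) with valproate, with a 95% interval of -0.35 to 0.11.

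MSH6, which recognises mismatched bases, read 10.97, 10.87 and 11.03 with acriflavine, 10.23, 9.86 and 9.88 with valproate, 10.26, 10.16 and 10.19 in TGFb1 replicates 1 to 3 with 11.06 in TGFb1 replicate 4, and 10.36, 10.24, 10.43 and 10.53 in control cells. TGFb1 replicate 4 lay above the acriflavine arrays, and TGFb1 replicates 1 to 3 lay below them. Acriflavine over TGFb1 was 0.54 ± 0.18 (adjusted p = 0.0275) with all arrays, a call lost in several alternatives with an adjusted p of up to 0.0863, and 0.75 ± 0.10 (adjusted p = 3.93e-05) without TGFb1 replicate 4. Valproate over TGFb1 was -0.43 ± 0.18 (adjusted p = 0.0915) and did not pass.

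Set against untreated cells in place of TGFb1 alone, the same inhibitor arrays gave 2 further comparisons. With TGFb1 and acriflavine, 11 genes were higher and 6 lower than in control cells, against 26.1% and 21.6% of all genes. FANCI at 0.85, EXO1 at 0.78 and RAD54L at 0.68 were highest, and ATM at -0.93, WRN at -0.68 and NBN at -0.61 were lowest. The lower group also held FANCL, RAD50 and TIMELESS, and the count of lower genes was 3 without acriflavine replicate 1. With TGFb1 and valproate, 0 genes were higher and 18 lower than in control cells, against 16.9% and 19.8% of all genes. TIMELESS at -1.47, BRCA1 at -1.24 and PIF1 at -1.22 were lowest, and the median was -0.60, against -0.02 for all genes. These comparisons share the control arrays with each other.

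The TGFb1 comparison differed between the replicates 1 to 3 and the replicates 4. With replicates 1 to 3 of both groups, TGFb1 lay above control in 14 of 29 genes and below it in 15, with a median difference of -0.01. In the pair of replicates 4, TGFb1 lay above control in 23 genes and below it in 5, RAD51C read the same in both, and the pair had a median difference of 0.37. PIF1 differed by 0.19 with replicates 1 to 3 and by 1.43 in the pair of replicates 4, and RAD54B by -0.08 and 1.10. The valproate mean lay below the mean of TGFb1 replicates 1 to 3 in 27 of 29 genes and below TGFb1 replicate 4 in 28. The acriflavine mean lay above the mean of TGFb1 replicates 1 to 3 in 20 of 29 genes and above TGFb1 replicate 4 in 6.

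Of the 29 genes, 16 had several bright probe sets of their own. Their probe sets gave 1 sign in every gene for valproate over TGFb1, and gave both signs in 7 genes for acriflavine over TGFb1 (ATM, CHEK1, CLSPN, FANCE, FANCI, NBN and TOPBP1) and in 3 for TGFb1 over control (BRCA1, FANCE and MSH6).

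Genes of DNA replication in S phase and of mitosis moved in the same arrays, and their part in the result was not tested. With valproate over TGFb1, 30 of 31 replication genes and 23 of 24 mitosis genes fell and 0 rose, with medians of -1.03 and -1.31, against -0.73 for the 29 repair and checkpoint genes. Examples are TK1, thymidine kinase, at -1.58 ± 0.07 (adjusted p = 3.15e-08) and KIF2C, a mitotic kinesin, at -1.75 ± 0.17 (adjusted p = 7.49e-06). With acriflavine over TGFb1, 19 of 31 replication genes rose and 1 fell, and 1 mitosis gene rose and 1 fell, with medians of 0.45 and 0.18. Without TGFb1 replicate 4, 25 replication genes rose and 1 fell, and 12 mitosis genes rose and 1 fell. In that fit 29.4% of all genes rose and 22.2% fell. In single arrays the median of the 29 genes minus the control mean was 0.36, 0.20 and 0.42 with acriflavine, -0.48, -0.63 and -0.60 with valproate, and 0.01, -0.18 and -0.03 in TGFb1 replicates 1 to 3 and 0.51 in replicate 4. The same value for mitosis genes was 0.44 to 0.46 with acriflavine, -1.22 to -0.75 with valproate, and 0.05, 0.23 and 0.03 in TGFb1 replicates 1 to 3 and 0.83 in replicate 4.

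**Figure D4:**
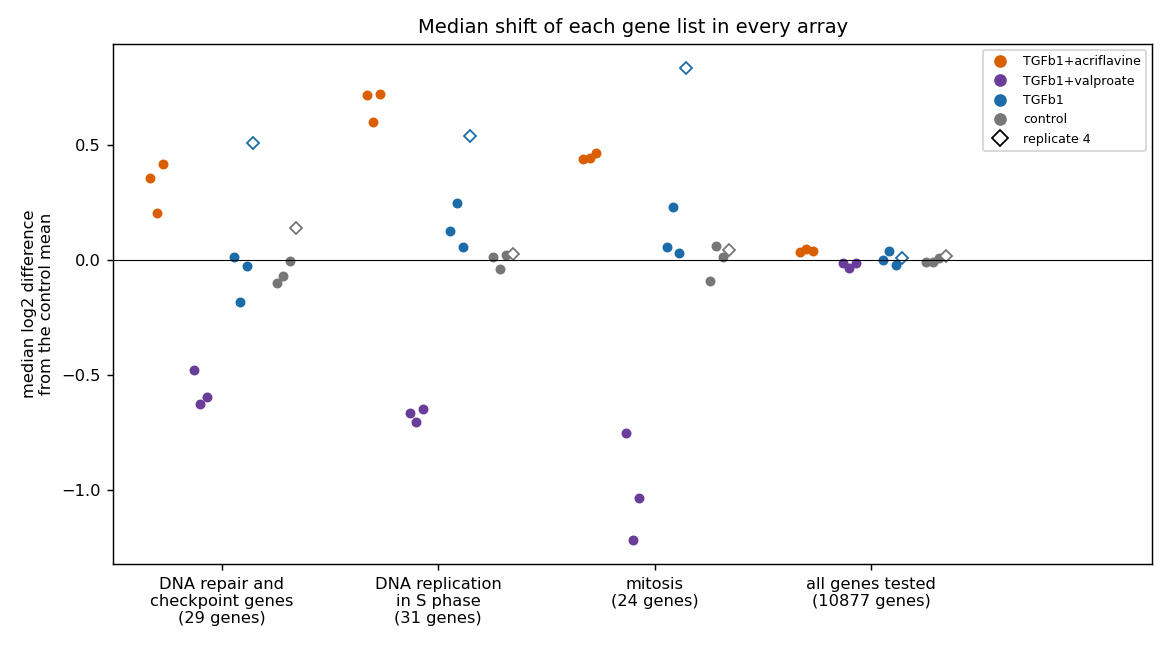
Median over the genes of 4 lists of log2 intensity minus the control mean (y axis) in each array, by group, with diamonds for replicate 4. In the repair and checkpoint, replication and mitosis lists the valproate arrays lie between -1.22 and -0.48 and the acriflavine arrays above 0, TGFb1 replicate 4 lies above TGFb1 replicates 1 to 3, and over all genes tested every array lies near 0.

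The rest of the repair pathways was read from lists of genes that are not among the 37, to be set against 16.2% of all genes that fell and 15.1% that rose with valproate over TGFb1, and 19.1% that fell and 24.5% that rose with acriflavine. Other genes of homologous recombination and DNA ends numbered 30 tested, of which 19 fell and 0 rose with valproate over TGFb1 (median -0.47), and 8 rose and 4 fell with acriflavine (median 0.13). GEN1, a nuclease that cuts recombination junctions, changed by -1.29 ± 0.15 (adjusted p = 2.23e-05) with valproate, and EME1, a subunit of another junction nuclease, by 0.79 ± 0.13 (adjusted p = 0.000297) with acriflavine. Of 18 other checkpoint genes, 10 fell and 0 rose with valproate, with CDC25A, the phosphatase that CHEK1 targets, at -1.54 ± 0.14 (adjusted p = 3.55e-06). With acriflavine 3 rose and 3 fell, with CDC25A at 0.63 ± 0.14 (adjusted p = 0.0021) and TIPIN, the partner of TIMELESS, at 0.63 ± 0.07 (adjusted p = 1.36e-05). Of 14 other Fanconi anaemia genes, 7 fell and 1 rose with valproate, and 6 fell and 4 rose with acriflavine. FAAP100, a core complex subunit, changed by -2.35 ± 0.23 (adjusted p = 3.04e-06) with acriflavine over TGFb1, and FAAP24, the partner of FANCM, by -0.91 ± 0.07 (adjusted p = 1.03e-06) with valproate.

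Repair pathways that do not use recombination were read in the same way, against the same shares of all genes. Of 22 genes of base excision and single-strand break repair, 11 fell and 1 rose with valproate, with UNG, which removes uracil, at -0.96 ± 0.11 (adjusted p = 2.74e-05), and 8 rose and 2 fell with acriflavine. Of 11 end joining genes, 5 fell and 0 rose with valproate, with NHEJ1 at -0.92 ± 0.08 (adjusted p = 3.85e-06), and the median of the list was 0.01. Of 18 nucleotide excision repair genes, 1 fell and 2 rose with valproate, and 1 fell and 7 rose with acriflavine, with ERCC1, a subunit of the incision nuclease, at 0.96 ± 0.13 (adjusted p = 5.17e-05). Of 11 translesion synthesis genes, 2 fell and 0 rose with valproate, with RAD18, the ligase that recruits the bypass polymerases, at -0.84 ± 0.15 (adjusted p = 0.000821). Of 3 other mismatch repair genes, MSH3 fell with valproate, with a change of -0.35 ± 0.07 (adjusted p = 0.00294). It also fell with acriflavine, with a change of -0.43 ± 0.07 (adjusted p = 0.000395). Of 19 target genes of p53, 3 fell and 3 rose with valproate, with TP53I3 at -1.38 ± 0.09 (adjusted p = 3.12e-07) and CDKN1A, the inhibitor of cyclin-dependent kinases, at 1.02 ± 0.15 (adjusted p = 0.000176). With acriflavine over TGFb1 4 of these targets fell and 4 rose (21.1% each), with TP53I3 at -1.13 ± 0.09 (adjusted p = 3.58e-07). TGFb1 over control changed TP53I3 by 1.12 ± 0.08 (adjusted p = 4.5e-07). PANC-1 is known to carry a mutated p53 gene. The shares that fell with valproate were 18.2% of the translesion synthesis genes and 15.8% of the p53 targets, near the 16.2% of all genes, and 5.56% of the nucleotide excision repair genes.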

How the data were processed

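RNA of 14 PANC-1 samples (200 ng each, labelled with biotin) was read on Affymetrix 3′ expression arrays. The authors deposited log2 intensities made by RMA with affy 1.44.0, per the submitters' processing notes; RMA subtracts background, sets the distributions of the arrays equal and sums probes, so changes are relative to the other genes of an array. Of 49193 probe sets, 44898 had 1 gene, 1825 several and 2470 none here; RefSeq matched 44871 of the symbols and changed 0. For 18129 genes the brightest probe set was kept, and the dimmest 40% (7252 genes, means under 6.89) were left out.

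One linear model per gene, with a mean for each group, was fitted with limma 3.58.1 (lmFit, eBayes, R 4.3.3) to the 14 arrays and tested in 6 comparisons, with Benjamini-Hochberg adjustment over 10877 genes at 0.05. SEs and 95% intervals are those of this fit, and their precision is limited by how many arrays there are. The script was tested on simulated data. Genes that passed are said to have risen or fallen. Values in every array are given for the 3 genes with the largest passing change in 4 of the comparisons, the 2 highest and 2 lowest by mean, and CHEK1, ATM, ATR and BRCA1; other genes that could show a contrast were added after their values were seen. Up to 2 passing genes of each pathway list were named. The genes and lists were chosen with earlier results of these data known. The series calls its replicates biological.

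The fit of all arrays used no pairing. A rule allowed pairing by replicate number where the deviations from the group means correlated above 0.1 across genes in every number. Control and TGFb1 samples met this rule (0.387, 0.359, 0.543 and 0.705), while replicates 1 to 3 alone gave -0.258, 0.151 and 0.589. The other comparisons did not meet it. Tried as alternatives were 2 other brightness limits, probe set choices, scalings, a trended variance, the 2 groups alone, the replicate block, the replicate set as a term, the replicates 4 left out, an adjusted p of 0.01 and each array left out. Promoters came from RefSeq (GRCh38.p14), and the plots were made in Python 3.11.15 with matplotlib 3.10.9.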

Additional observations from a re-analysis of the deposited data

Results flagged for a closer look

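In groups of 4 arrays, an array was singled out where its gap to the nearest other array exceeded Dixon's 95% critical share of the group's range. Chance marks about 1 in 20 groups, or 5%, and 10 of 66 groups of the 33 measured genes were marked (15.2%), 8 of them through TGFb1 replicate 4 and 2 through control replicate 4. All genes were read on the same arrays, so a single deviating array can mark many groups. The 2 shares are therefore not a test.

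TGFb1 replicate 4 was high for RAD54B at 9.20, against 7.857 to 8.002 in TGFb1 replicates 1 to 3, and for PIF1 at 9.32, against 7.62 to 7.87. It was high for the Fanconi anaemia factors FANCI at 10.17, against 9.21 to 9.34, and FANCL at 10.95, against 10.24 to 10.31. The checkpoint kinase CHEK1 read 10.77 in it, against 10.20 to 10.27, the nuclease MRE11 read 10.06, against 8.73 to 8.94, and the mismatch factor MSH6 read 11.06, against 10.16 to 10.26. FANCE was the exception, low at 7.56 against 8.11 to 8.20. Control replicate 4 was high for FANCI at 9.75, against 9.01 to 9.04 in control replicates 1 to 3, and for CHEK1 at 10.24, against 10.04 to 10.06. The same arrays deviated most from their groups over all genes together with TGFb1 replicate 2, and the origin of this was not tested.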

How the results depend on the processing

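Valproate over TGFb1 gave 0 genes higher under all alternatives run and 17 to 20 lower with each array of the 2 groups left out, and acriflavine over valproate gave 20 higher and 0 lower with each array of its 2 groups left out. With the dimmest 60% left out, fewer genes were tested, and 11 were lower for valproate over TGFb1, 12 higher for acriflavine over valproate, 6 higher for acriflavine over control and 10 lower for valproate over control. Acriflavine over valproate had 1 gene lower with the 2 groups alone, the replicate block, the replicates 4 left out, the replicate set as a term, without TGFb1 replicate 2, without TGFb1 replicate 4, and without TGFb1 replicates 2 and 4 and control replicate 4; the last, and leaving out arrays of groups not compared, were chosen after seeing the data.

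TGFb1 over control had 0 genes higher with no genes left out, with the dimmest 60% left out, with the 2 groups alone and at an adjusted p of 0.01, 2 with probe sets averaged and without the 3 arrays named above, 7 with the replicate set as a term and 6 with the replicate block; it had 0 lower with the 2 groups alone and at 0.01, 2 with the block, 4 with the replicates 4 left out and 3 with the replicate set as a term. Acriflavine over TGFb1 had 1 higher with the 2 groups alone and at 0.01, 9 with the block or the replicate set as a term, 14 with the replicates 4 left out and 15 without the 3 arrays, and 4 lower with the block, the replicates 4 left out or the set term and 7 without the 3 arrays. Acriflavine over control had 17 higher with the set term and without the 3 arrays, and 3 lower at 0.01. With each array of the 2 compared groups left out, TGFb1 over control ranged over 0 to 1 higher and 0 to 5 lower, acriflavine over TGFb1 over 1 to 12 and 2 to 5, acriflavine over control over 9 to 12 and 3 to 6, and valproate over control over 0 to 0 and 14 to 18. Leaving out TGFb1 replicate 4 gave 21 higher for acriflavine over valproate (32.1% of all genes), 16 higher for acriflavine over control (30.6%) and 25 lower for valproate over control (25.4%), and leaving out TGFb1 replicate 2 gave 20 lower for the last (22.0%). For TGFb1 over control, 0 rose without any 1 acriflavine array or without valproate replicate 1. The cause of these shifts was not tested.

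The replicate block used a pairing that only control and TGFb1 samples met; for valproate over TGFb1 it gave 20 lower (20.7% of all genes), for acriflavine over TGFb1 the counts above stood against 30.1% of all genes higher and 23.1% lower, for acriflavine over valproate 22 higher (32.7%), and for the comparisons with control 16 higher (30.8%) and 6 lower (24.7%) with acriflavine and 21 lower (24.3%) with valproate. No called gene changed sign under any alternative run; genes that passed in neither fit changed sign in 31 of 596 values for TGFb1 over control, 24 of 567 for acriflavine over TGFb1, 6 of 567 for valproate over TGFb1 and 22 of 567 for acriflavine over control. Low signal limits BRIP1, FANCB, FANCM and ATRIP, with means over all arrays of 5.30, 6.84, 5.32 and 6.83, under the lowest tested mean of 6.89. Valproate arrays of tested genes also read below that mean, such as 6.07 and 6.30 for PIF1 and 6.40 to 6.49 for CLSPN.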
